A study of Mus musculus with 8 samples.

Results

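Neutrophils are made in the bone marrow from myeloid progenitors, and their granule proteins are transcribed in a fixed order. Promyelocytes make the primary (azurophil) granule proteins, myelocytes and metamyelocytes the secondary (specific) granule proteins, and later cells the gelatinase granule proteins and the receptors that let a circulating neutrophil respond to chemoattractants. Transcripts of the primary granule genes are therefore largely a marrow feature, while transcripts such as S100a8 and Cxcr2 are carried by neutrophils in blood and tissue. The data described here are 36 neutrophil genes spanning these stages, picked by gene symbol out of 35494 symbols in the deposited count table, in which all 36 were found. They were chosen with earlier results of the same comparison known, among them high neutrophil and marrow transcripts in some of the tumour samples, so the levels below are given as a description and no test is drawn from them.

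The libraries came from quadriceps muscle of male wild-type C57BL/6 mice, 8 weeks old at the start, with 1 library per mouse. In the scMC38 group (n = 4) 1.0 M cells of MC38, a mouse colorectal cancer line, were injected under the skin in 200 µl of saline. In the control group (n = 4) the same volume of saline (PBS) was injected. Muscle was taken at day 28. Each library held between 50.5 and 62.1 M counts, and values are given as rounded estimated counts or as counts per M after TMM scaling (CPM). The muscle identity of all 8 libraries was plain: 10 fibre genes, among them Acta1, Ckm and Myh4, summed to between 104740 CPM (scMC38 3) and 149358 CPM (control 3). Because the samples are bulk tissue, fewer cells of a type and less RNA per cell cannot be told apart.

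The 4 scMC38 libraries were not alike. All 36 genes had their highest level in scMC38 3, and 33 of them had their second highest in scMC38 1. The members together held 0.586% of all counts in scMC38 3 and 0.0637% in scMC38 1. They held 0.00421% in scMC38 2 and 0.00613% in scMC38 4, against 0.00304% to 0.00420% in the controls. Over the 36 genes the median level in scMC38 1 was 11.9% of that in scMC38 3, and it was 0.413% in scMC38 2, 1.23% in scMC38 4 and between 0.0285% and 0.237% in the controls. The same 2 libraries held transcripts of bone and other marrow cells, whose values are given below, and the neutrophil values are therefore shown library by library.

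**Figure D1:**
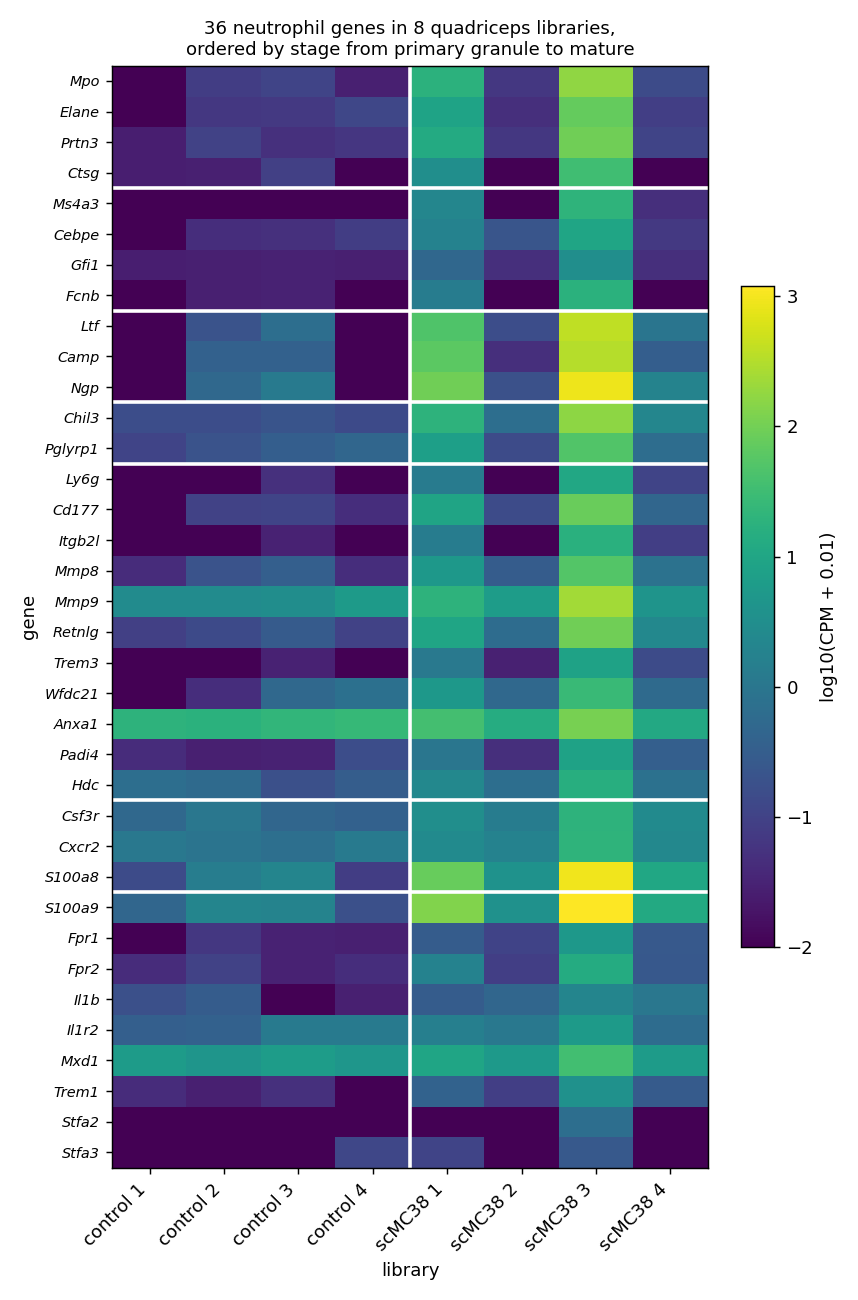
Level of each of the 36 genes (rows, by stage, white lines between gene groups) in each of the 8 libraries (columns), as log10(CPM + 0.01). All 36 genes peak in scMC38 3, 33 are second highest in scMC38 1, and the primary granule genes at the top stay near the bottom of the scale in the other 6 libraries.

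In scMC38 against control, edgeR called 104 genes higher (0.737% of the 14112 tested) and 66 lower (0.468%). Of the 36 members 18 passed its filter on low counts, and 0 of these 18 were called in either direction (1.2% of all tested genes were). At an unadjusted p under 0.05 by edgeR there were 16 of the 18, and the share of all tested genes at that threshold was not computed. DESeq2 called 13 of the 18, all higher, where it called 829 of the 14112 tested genes higher and 597 lower. In 6 of the 18 every scMC38 library lay above every control, where 6.82% of all tested genes did so, and 0 of the 18 lay wholly below, against 6.45%. The log2 fold change was above 0 in all 18, with a median of 5.24, against 50.2% of all tested genes above 0. Since this comparison was used to choose the members, nothing is read from these counts. By gene group, the filter passed 0 of the 4 primary granule genes, 0 of the 4 promyelocyte genes, all 3 secondary granule genes and the other 2 of that granule, 6 of 11 later granule, surface and enzyme genes, all 3 of the mature genes Csf3r, Cxcr2 and S100a8, and 4 of the 9 other mature genes.

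The primary granule genes were abundant in 2 libraries and nearly absent from the other 6. Mpo encodes myeloperoxidase, which makes hypochlorous acid in the phagosome. Its counts were 0, 4, 5 and 1 in controls 1 to 4, and 1083, 3, 12250 and 7 in scMC38 1 to 4. Scaled for depth, Mpo stood at 18.3 CPM in scMC38 1 and 174 CPM in scMC38 3, and at no more than 0.138 CPM elsewhere. The groups overlapped, as scMC38 2 lay within the range of the controls. Elane encodes neutrophil elastase and had 0, 3, 3 and 6 counts in controls 1 to 4 against 532, 2, 5337 and 4 in scMC38 1 to 4. Prtn3, proteinase 3, had 1, 5, 2 and 3 counts in the controls and 766, 3, 6605 and 5 in scMC38 1 to 4. Ctsg, cathepsin G, completes the serine protease set of this granule. It had 1, 1, 4 and 0 counts in the controls and 189, 0, 2376 and 0 in scMC38 1 to 4. In each of these 4 genes scMC38 2 did not exceed the highest control, and scMC38 4 exceeded it in Mpo and Prtn3 alone, by counts of 7 against at most 5 and of 5 against at most 5 before scaling for depth.

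Promoter windows of Mpo and Elane are shown because these genes mark the earliest stage and were seen in the same 2 libraries. The sequences are RefSeq's, for the build GRCm38.p6, an earlier build than the GRCm39 named for the counts, and cover 250 bases before to 50 after the start of the gene. Capitals mark matches on either strand to GAGGAA, the core of the site bound by the myeloid factor PU.1, or to TTGCNNAA, a spelling of the C/EBP site. These letters do not overlap each other in any window shown. The Mpo window (chr11:87793534-87793833, plus strand) holds 2 matches to GAGGAA and that of Elane (chr10:79886062-79886361, plus strand) holds 1.
Mpo: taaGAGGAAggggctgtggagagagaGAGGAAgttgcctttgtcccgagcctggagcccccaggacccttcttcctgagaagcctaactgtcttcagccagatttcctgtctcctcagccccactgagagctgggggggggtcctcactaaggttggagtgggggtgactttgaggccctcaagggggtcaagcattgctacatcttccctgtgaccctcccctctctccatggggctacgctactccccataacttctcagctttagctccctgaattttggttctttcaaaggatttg
Elane: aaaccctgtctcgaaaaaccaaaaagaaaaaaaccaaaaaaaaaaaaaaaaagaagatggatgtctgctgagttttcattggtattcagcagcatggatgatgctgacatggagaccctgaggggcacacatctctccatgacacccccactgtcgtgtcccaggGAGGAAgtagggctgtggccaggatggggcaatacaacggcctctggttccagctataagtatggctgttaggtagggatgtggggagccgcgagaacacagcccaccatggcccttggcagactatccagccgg
All 4 primary granule genes had a GAGGAA match in their window and 0 of the 4 had a TTGCNNAA match. Over all 32851 windows in the table, 28.3% held GAGGAA and 10.8% held TTGCNNAA. A match is a run of letters and no evidence of binding.

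Of the 4 genes that mark or direct promyelocytes, Ms4a3, a membrane protein of granulocyte and monocyte progenitors, had the lowest background. It had 0 counts in all 4 controls and in scMC38 2, 2 counts in scMC38 4, and 129 and 1389 in scMC38 1 and 3. Its level in scMC38 3 was at least 330-fold higher than the floor of 3 counts per control library. Fcnb, the lectin ficolin B, had 0, 1, 1 and 0 counts in the controls and 80, 0, 1250 and 0 in scMC38 1 to 4. For Ms4a3 and Fcnb, scMC38 1 and 3 stood apart and the other tumour libraries could not be told from controls at this depth. Cebpe encodes the transcription factor C/EBP epsilon, which is required for secondary granule genes. It had 0, 2, 2 and 4 counts in the controls, and 103, 11, 683 and 3 in scMC38 1 to 4. Gfi1, a repressor needed for neutrophil differentiation, had 1 count in each control and 29, 2, 230 and 2 in scMC38 1 to 4. The separation of the groups in Gfi1 thus rests, for scMC38 2 and 4, on 2 counts against 1.

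The secondary granule genes were likewise high in scMC38 1 and 3, and were also detected in 2 of the controls. Ltf encodes lactoferrin, an iron-binding protein. It stood at 0, 0.185, 0.660 and 0 CPM in controls 1 to 4, and at 47.6, 0.151, 399 and 0.926 CPM in scMC38 1 to 4. Camp encodes the antimicrobial peptide precursor cathelicidin, and stood at 0, 0.369, 0.360 and 0 CPM in the controls and 63.4, 0.0378, 331 and 0.315 CPM in scMC38 1 to 4. In Camp both scMC38 2 and scMC38 4 lay below controls 2 and 3. Ngp, neutrophilic granule protein, had 0, 28, 61 and 0 counts in the controls and 5552, 9, 61927 and 93 in scMC38 1 to 4. The 3 genes gave one pattern over the controls: control 1 and control 4 had 0 counts of each, while control 2 had 58 and control 3 had 112 over the 3 genes together. The summed level was 205 CPM in scMC38 1 and 1613 CPM in scMC38 3. In scMC38 2 it was 0.360 CPM and in scMC38 4 3.07 CPM, so scMC38 2 lay inside the control range of 0 to 2.24 CPM.

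The fitted log2 fold changes of these 3 genes were 9.11 (SE 2.55) for Ltf, 9.12 (SE 2.61) for Camp and 9.18 (SE 2.65) for Ngp. They rest on scMC38 1 and 3. Without these 2 libraries they were 1.39, -0.01 and 1.24. Chil3, the chitinase-like protein Ym1, is made by neutrophil precursors and by some macrophages. It had between 7 and 10 counts in the controls and 1149, 36, 11725 and 106 in scMC38 1 to 4, so every scMC38 library lay above every control, with a log2 fold change of 3.15 without scMC38 1 and 3. Pglyrp1, a peptidoglycan-binding granule protein, did not separate the groups, with 0.100 to 0.473 CPM in the controls and 7.22, 0.132, 49.1 and 0.650 CPM in scMC38 1 to 4. Counts of Chil3 may be shared with its close relatives by the estimation.

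The windows of Ltf and Ngp are shown with the same marks, as 2 genes of the secondary granule that moved with the primary granule genes. Ltf (chr9:111019042-111019341, plus strand) has 1 match to TTGCNNAA and 1 to GAGGAA, and Ngp (chr9:110419558-110419857, plus strand) has 2 to TTGCNNAA.
Ltf: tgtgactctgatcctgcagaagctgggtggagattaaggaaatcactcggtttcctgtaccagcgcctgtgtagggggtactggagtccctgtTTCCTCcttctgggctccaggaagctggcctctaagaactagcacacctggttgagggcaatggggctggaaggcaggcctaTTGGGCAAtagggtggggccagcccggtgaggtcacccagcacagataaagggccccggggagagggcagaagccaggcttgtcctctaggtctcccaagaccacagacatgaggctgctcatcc
Ngp: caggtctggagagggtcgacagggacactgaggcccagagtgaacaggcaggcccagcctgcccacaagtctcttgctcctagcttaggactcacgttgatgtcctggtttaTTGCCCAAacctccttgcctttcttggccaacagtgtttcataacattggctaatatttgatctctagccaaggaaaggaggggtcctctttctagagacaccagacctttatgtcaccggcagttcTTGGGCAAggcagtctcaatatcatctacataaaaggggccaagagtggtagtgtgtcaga
Of the 3 secondary granule genes 2 had a TTGCNNAA match and 1 a GAGGAA match in their windows. Ltf and Ngp both lie on chromosome 9, in windows that do not overlap.

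Genes of the later granules, the cell surface and neutrophil enzymes made up the largest group, with 11 members. Retnlg, a resistin-like secreted protein, had 5, 7, 14 and 5 counts in the controls and 580, 32, 6657 and 120 in scMC38 1 to 4. Cd177, a surface protein of secondary granules, had 0, 5, 5 and 2 counts in the controls and 542, 7, 5941 and 24 in scMC38 1 to 4. For both genes all 4 scMC38 libraries lay above all controls, and scMC38 4 lay above scMC38 2. Without scMC38 1 and 3 the log2 fold change of Retnlg was 3.36. Mmp8, neutrophil collagenase, had 2, 10, 17 and 2 counts in the controls and 307, 15, 3651 and 42 in scMC38 1 to 4, with scMC38 2 inside the control range. Ly6g, the antigen by which mouse neutrophils are sorted, had at most 2 counts in a control and 75, 0, 793 and 5 in scMC38 1 to 4. Itgb2l, an integrin beta chain of neutrophil precursors, had at most 1 count in a control and 81, 0, 1184 and 4 in scMC38 1 to 4. Trem3, an activating receptor, also had at most 1 count in a control, and 65, 1, 590 and 7 in scMC38 1 to 4. These 3 surface genes were therefore at or near 0 outside scMC38 1 and 3, with the few counts of scMC38 4 as the exception.

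Padi4, the enzyme that citrullinates histones in extracellular traps, had between 1 and 8 counts in the controls and 59, 2, 584 and 17 in scMC38 1 to 4. Hdc, histidine decarboxylase, had between 8 and 41 counts in the controls and 137, 35, 1083 and 39 in scMC38 1 to 4. Wfdc21, of the whey acidic protein family, stood at 0, 0.0369, 0.520 and 0.728 CPM in the controls and 5.09, 0.511, 27.8 and 0.571 CPM in scMC38 1 to 4. In Hdc and Wfdc21 scMC38 2 and 4 fell within, or close to, the spread of the controls. The remaining 2 genes had a clear level in muscle without tumour. Mmp9, gelatinase B, which osteoclasts also make, stood at 2.78, 2.84, 3.04 and 5.88 CPM in the controls and 19.6, 6.51, 233 and 4.18 CPM in scMC38 1 to 4. Anxa1, annexin A1, which many cell types express, stood at 17.6 to 25.8 CPM in the controls and 36.1, 13.7, 109 and 11.6 CPM in scMC38 1 to 4. For Anxa1 scMC38 2 and 4 lay below every control, which was the opposite side from scMC38 1 and 3.

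The mature genes Csf3r, Cxcr2 and S100a8 stood above every control in all 4 tumour libraries. So did the granule genes Chil3, Retnlg and Cd177, and the promyelocyte gene Gfi1 on 2 counts against 1. Of all tested genes, which include neither Cd177 nor Gfi1, 6.82% did so. The primary granule genes did not, at no more than 7 counts in scMC38 2, scMC38 4 and each control. Counts this low limit any separation, so no contrast of stages is read from it. Csf3r, the receptor of the growth factor G-CSF, stood at 0.519, 1.02, 0.460 and 0.364 CPM in controls 1 to 4, and at 3.24, 1.36, 19.3 and 2.70 CPM in scMC38 1 to 4. Cxcr2, the chemokine receptor that draws neutrophils out of the marrow, stood at 1.07, 0.904, 0.700 and 1.15 CPM in the controls and at 2.70, 1.76, 20.4 and 2.34 CPM in scMC38 1 to 4. In Csf3r and Cxcr2 no scMC38 library overlapped a control. S100a8, a calprotectin subunit that fills the neutrophil cytosol, stood at 0.134, 1.44, 2.00 and 0.0728 CPM in the controls and at 78.9, 3.88, 929 and 10.5 CPM in scMC38 1 to 4. Its partner S100a9 stood at 0.469, 2.01, 1.90 and 0.164 CPM in the controls and at 129, 3.73, 1198 and 12.3 CPM in scMC38 1 to 4. For both calprotectin genes the order among tumour libraries was scMC38 3, 1, 4 and 2, and the lowest of them lay above the highest control. Controls 2 and 3, the controls with secondary granule counts, were also those with more S100a8 and S100a9. The fitted log2 fold changes were 8.15 (SE 2.08) for S100a8, 8.22 (SE 2.04) for S100a9, 3.49 (SE 0.86) for Csf3r and 2.83 (SE 0.82) for Cxcr2. Without scMC38 1 and 3 they were 3.01, 2.84, 1.80 and 1.12, below the values of Chil3 and Retnlg.

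Promoter windows of S100a8 and Csf3r are shown for the late stage, with the same marks, to set beside those of the granule genes. S100a8 (chr3:90668821-90669120, plus strand) has 2 matches to GAGGAA and Csf3r (chr4:126024409-126024708, plus strand) has 1, and neither has a TTGCNNAA match.
S100a8: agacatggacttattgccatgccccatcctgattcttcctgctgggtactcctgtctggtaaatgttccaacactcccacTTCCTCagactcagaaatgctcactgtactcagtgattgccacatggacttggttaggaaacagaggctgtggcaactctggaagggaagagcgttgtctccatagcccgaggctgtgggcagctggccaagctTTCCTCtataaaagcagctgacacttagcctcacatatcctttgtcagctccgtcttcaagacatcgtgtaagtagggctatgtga
Csf3r: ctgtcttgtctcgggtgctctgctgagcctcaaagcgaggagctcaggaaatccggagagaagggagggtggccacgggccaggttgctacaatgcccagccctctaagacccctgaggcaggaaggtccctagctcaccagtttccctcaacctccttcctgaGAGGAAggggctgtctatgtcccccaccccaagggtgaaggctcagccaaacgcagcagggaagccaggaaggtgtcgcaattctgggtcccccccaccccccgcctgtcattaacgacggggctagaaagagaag
All 3 mature genes had a GAGGAA match. Windows were found for 32 of the 36 members, 34 windows in all. GAGGAA was in 58.8% of them and TTGCNNAA in 29.4%, against the 28.3% and 10.8% of all windows given above. TGTGGT, a RUNX spelling, was in 17.6% of them and in 16.8% of all windows. Other spellings gave 23.5% against 11.5% for TTNNGNAAT, 23.5% against 3.20% for GAGGAAGT and 35.3% against 9.35% for AGGAAGT. These shares describe letters in windows of RefSeq genes, and were not tested.

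Of the 9 other mature genes, S100a9, Fpr1 and Trem1 separated the groups and 6 did not. Among all tested genes 6.82% had every scMC38 library above every control, but Fpr1 and Trem1 were not tested. Nothing is therefore read from this count. Fpr1, a formyl peptide receptor, had 0, 3, 1 and 1 counts in the controls and 17, 5, 361 and 13 in scMC38 1 to 4. Trem1, which amplifies inflammatory signals, had at most 2 counts in a control and 23, 4, 254 and 14 in scMC38 1 to 4. In both the groups were separate, at counts of 4 and 5 in the lowest tumour library. Il1b, the cytokine interleukin-1 beta, had 10, 16, 0 and 1 counts in the controls and 17, 24, 142 and 52 in scMC38 1 to 4, and was the member in which scMC38 4 rather than scMC38 1 was second. Fpr2, which also binds formyl peptides, had at most 5 counts in a control and 106, 4, 919 and 12 in scMC38 1 to 4. Il1r2, the decoy receptor of interleukin-1, had 20 to 67 counts in the controls and 93, 56, 402 and 31 in scMC38 1 to 4. Mxd1, a MYC antagonist of differentiating myeloid cells that muscle also expressed, stood at 4.50 to 6.40 CPM in the controls and 9.72, 5.58, 34.7 and 6.24 CPM in scMC38 1 to 4. In Il1r2 and Mxd1 scMC38 2 and 4 were within the control range, and without scMC38 1 and 3 the log2 fold changes were 0.12 and 0.15. The stefin genes Stfa2 and Stfa3, inhibitors of cysteine proteases, had at most 47 and 18 counts, both in scMC38 3. Stfa3 had 6 counts in control 4 and 6 in scMC38 1, and reads of these near-identical genes may be shared.

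**Figure D2:**
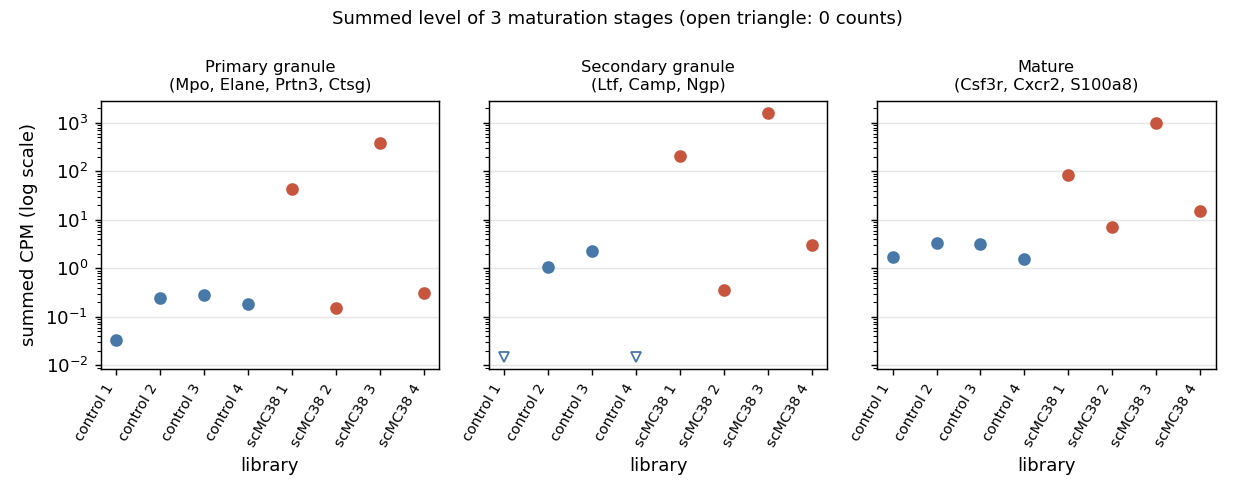
Summed CPM (log axis) of the 4 primary granule, 3 secondary granule and 3 mature genes in each library, controls in blue and scMC38 in red. Open triangles mark 0 counts and sit at an arbitrary height. In the mature panel all 4 scMC38 libraries (7.0 to 969 CPM) lie above the controls (1.58 to 3.36 CPM), while in the primary granule panel scMC38 2 lies among the controls.

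By gene group, the number of members above every control in scMC38 4 was 2 of 4 primary granule, 2 of 4 promyelocyte, 2 of 3 secondary granule and 3 of 3 mature genes. In scMC38 2 it was 0 of 4, 2 of 4, 0 of 3 and 3 of 3. The other groups were mixed: 2 of 2 other secondary granule genes, 8 of 11 later genes and 5 of 9 other mature genes in scMC38 4, and 1 of 2, 3 of 11 and 4 of 9 in scMC38 2. In scMC38 1 it was 33 of the 36 members and in scMC38 3 all 36. The share of all genes above every control in a single library was not computed. These counts thus have no baseline, and nothing is read from them. The summed primary granule level was 0.151 CPM in scMC38 2 and 0.315 CPM in scMC38 4, against 0.0335 to 0.280 CPM in the controls. It was 43.4 CPM in scMC38 1 and 378 CPM in scMC38 3.

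The counts of the stages were set against each other within each library. Gene length enters such a ratio, so its value is read only between libraries, where the same genes are used. Primary granule counts made up 33.8% of primary granule plus mature counts in scMC38 1 (95% Wilson interval 32.8% to 34.9%) and 28.1% in scMC38 3 (27.8% to 28.4%). The share was 2.12% in scMC38 2 (1.08% to 4.12%) and 1.99% in scMC38 4 (1.23% to 3.20%). These 2 shares could not be told apart, and both lay far under those of scMC38 1 and 3. In the controls it was 1.90% (0.524% to 6.68%), 6.67% (3.94% to 11.1%), 8.14% (4.91% to 13.2%) and 10.3% (5.70% to 17.9%) in controls 1 to 4, from 2, 13, 14 and 10 primary granule counts. The intervals cover counting error only. The mature sum of the controls was mainly Csf3r and Cxcr2 in controls 1 and 4, in which S100a8 gave 8 of 103 and 4 of 87 counts, so the share there does not describe neutrophils alone. With S100a8 as the sole mature gene the share was 35.5% in scMC38 1 (34.4% to 36.6%), 28.9% in scMC38 3 (28.6% to 29.2%), 3.76% in scMC38 2 (1.92% to 7.23%) and 2.91% in scMC38 4 (1.80% to 4.68%). It was then 20% (5.67% to 51.0%), 14.3% (8.54% to 22.9%), 12.3% (7.46% to 19.6%) and 71.4% (45.4% to 88.3%) in controls 1 to 4, so control 4 stood above scMC38 1 and 3, on 10 primary granule and 4 S100a8 counts. On the log2 scale the ratio of primary granule to mature genes was -0.97 in scMC38 1 and -1.36 in scMC38 3. It was -5.53 in scMC38 2 and -5.62 in scMC38 4, and in the controls it was at most -5.10 (control 1), -3.81, -3.50 and -3.12. The order of scMC38 1 and 3 depended on the measure: with the mean log2 CPM of the genes in place of their sums the values were 0.03 and 0.17, and with 12 mature genes in the sum -2.40 and -2.56. The ratio of secondary granule to mature genes was 1.27 in scMC38 1, 0.74 in scMC38 3, -4.28 in scMC38 2 and -2.34 in scMC38 4. In controls 1 to 4 it was at most -5.10, -1.65, -0.50 and at most -4.86, so controls 2 and 3 lay above both scMC38 2 and 4, and controls 1 and 4 below them.

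**Figure D3:**
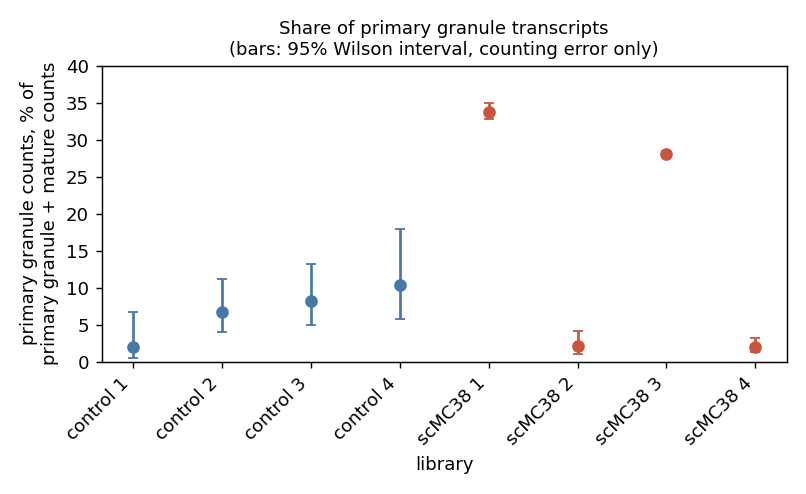
Primary granule counts (Mpo, Elane, Prtn3, Ctsg) as a percentage of primary granule plus mature counts (Csf3r, Cxcr2, S100a8) in each library, with 95% Wilson intervals for counting error. scMC38 1 and 3 stand at 33.8% and 28.1%, the controls between 1.90% and 10.3%, and scMC38 2 and 4 at 2.12% and 1.99%. With S100a8 as the sole mature gene the controls instead stand between 12.3% and 71.4%.

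Far more of these transcripts were held by scMC38 3 than by scMC38 1, by a factor that differed from gene to gene. The level in scMC38 3 was 9.55 times that in scMC38 1 for Mpo (95% exact interval of counting error 8.97 to 10.2), 8.47 times for Elane (7.75 to 9.28), 7.28 times for Prtn3 (6.75 to 7.86) and 10.6 times for Ctsg (9.15 to 12.4). It was 8.38 times for Ltf (8.06 to 8.72), 5.22 times for Camp (5.05 to 5.41), 11.8 times for S100a8 (11.4 to 12.1) and 5.94 times for Csf3r (5.11 to 6.95). The intervals of Camp and S100a8 do not meet, so the factor was not the same for every gene. The median factor was 9.01 for primary granule, 8.38 for secondary granule and 7.57 for mature genes. With the control mean taken off both libraries it was 9.04, 8.42 and 11.2, so the mature genes went from the lowest median to the highest and no order of stages is read from it. The lowest factors with useful counts belonged to genes that muscle without tumour also expressed: 3.02 for Anxa1, 3.57 for Mxd1 and 3.65 for Il1r2. With the same correction these became 5.85, 6.79 and 6.28. Of the 33 genes with scMC38 1 above every control, 25 then had a factor between 5 and 10, with a range of 5.24 (Camp) to 19.4 (Fpr1) and a median of 8.78.

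**Figure D4:**
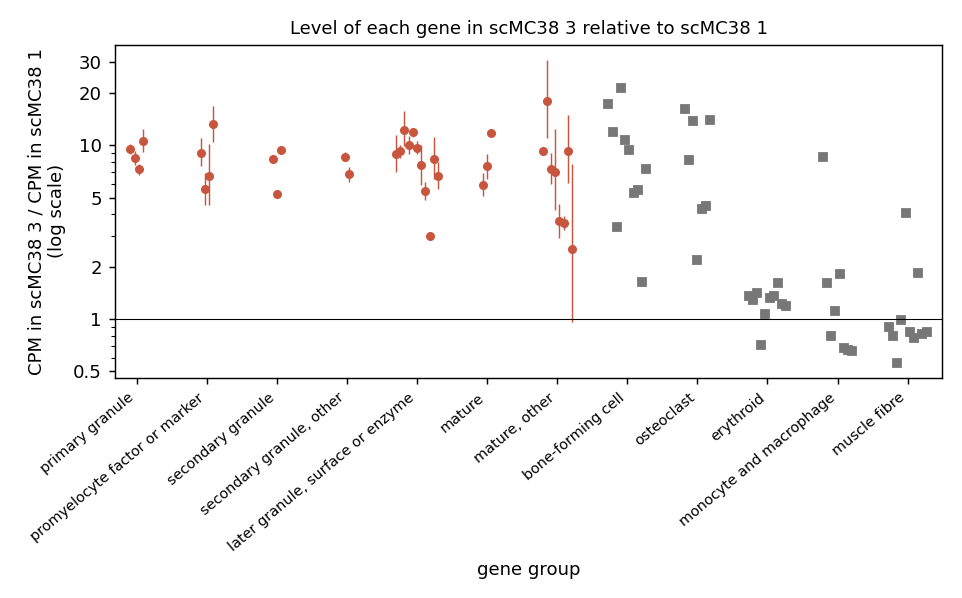
CPM in scMC38 3 divided by CPM in scMC38 1 (log axis) for each neutrophil gene with over 3 counts in scMC38 1 (red circles, by gene group, bars are 95% exact intervals of counting error) and for genes of 5 other lists (grey squares). The median is 9.01 for primary granule and 7.57 for mature genes. In the other lists it is 8.34 for bone-forming, 8.27 for osteoclast, 1.31 for erythroid, 0.955 for macrophage and 0.844 for muscle fibre genes. With the control mean taken off, the first 2 medians are 9.04 and 11.2.

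Markers of other cell types were read beside these values. Of 10 genes of bone-forming cells, the summed level was 12.7 to 34.7 CPM in the controls and 57.3, 6.47, 297 and 9.69 CPM in scMC38 1 to 4. Ibsp, bone sialoprotein, had 0, 0, 0.06 and 0 CPM in the controls and 40.6, 0, 137 and 1.40 CPM in scMC38 1 to 4. Bglap, osteocalcin, was at 3.53 CPM in scMC38 1 and 60.8 CPM in scMC38 3 and at no more than 0.0185 CPM elsewhere. The 7 osteoclast genes summed to 6.73 to 22.1 CPM in the controls and to 31.1, 11.5, 370 and 5.06 CPM in scMC38 1 to 4. By summed level, and in Ibsp and Bglap, bone genes thus stood high in the same 2 libraries as the primary granule genes. Ibsp was also detected in scMC38 4. Alpl, which carried most of the bone-forming sum in the controls, stood at 9.56 to 33.1 CPM there. It stood at 7.19, 5.22, 38.1 and 6.64 CPM in scMC38 1 to 4, so scMC38 1 lay below every control. Phex also lay below every control in scMC38 1, at 0.59 CPM against 0.64 to 0.801 CPM. The bone-forming list was therefore mixed in scMC38 1. The part of bone tissue in the neutrophil levels was not tested. The median factor between scMC38 3 and scMC38 1 was 8.34 for bone-forming and 8.27 for osteoclast genes, ranging among the named bone genes from 3.38 (Ibsp) to 17.2 (Bglap).

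Genes of other marrow lineages were read in the same way. The 7 eosinophil genes summed to at most 1.06 CPM in a control and to 4.76, 2.29, 15.5 and 1.40 CPM in scMC38 1 to 4. The 6 megakaryocyte and platelet genes summed to 4.72 to 6.90 CPM in the controls and 19.4, 6.72, 51.9 and 3.57 CPM in scMC38 1 to 4. Of the 8 B cell progenitor genes in the table Dntt, a polymerase of immature lymphocytes, was at 1.75 CPM in scMC38 3 and at most 0.0843 CPM elsewhere. The list's sum, carried by Ebf1, was 15.9 to 21.4 CPM in the controls and 19.6, 15.2, 28.3 and 14.1 CPM in scMC38 1 to 4. The 8 cell cycle genes summed to 19.8 to 22.6 CPM in the controls and 65.3, 22.4, 163 and 21.2 CPM in scMC38 1 to 4, so they too were high where the primary granule genes were. The 9 stem and progenitor genes, led by Cd34, which muscle interstitial cells also express, were not high by sum. They summed to 111 to 122 CPM in the controls and 101, 98.1, 115 and 86.0 CPM in scMC38 1 to 4. Within that list Kit stood at 3.28 CPM in scMC38 3 against 0.6 to 1.11 CPM in the controls. Flt3 stood at 0.983 CPM there against 0.0837 to 0.22 CPM. No other gene of the list exceeded every control in scMC38 3. In scMC38 1 both Kit (0.978 CPM) and Flt3 (0.202 CPM) lay within the control range.

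Red cell genes differed among themselves. The 10 erythroid genes summed to 415 to 782 CPM in the controls and 1547, 1086, 1834 and 1059 CPM in scMC38 1 to 4, with all 4 tumour libraries above all controls and Hba-a1, Hbb-bs, Alas2 and Slc4a1 called higher, each of which lost its edgeR call in at least 7 of the 8 fits that leave out 1 library (adjusted p up to 0.157). The sum was carried by Hba-a1 and Hbb-bs, while Tfrc, the transferrin receptor, which muscle also expressed, was not called (log2 fold change -0.43, adjusted p = 0.186 by edgeR). Genes of red cell precursors stood high in scMC38 1 and 3 as the primary granule genes did. Ahsp, a haemoglobin chaperone, was at no more than 0.0554 CPM in a control and at 7.76, 0.0757, 12.6 and 0.197 CPM in scMC38 1 to 4, and Klf1, an erythroid transcription factor, at no more than 0.134 CPM in a control and at 2.41, 0.0189, 3.39 and 0.0985 CPM. Rhag, a red cell membrane protein, reached 2.87 CPM in scMC38 1 and 3.49 CPM in scMC38 3, with no more than 0.0369 CPM in any other library. The factor between scMC38 3 and scMC38 1 was 1.62 for Ahsp, 1.41 for Klf1 and 1.22 for Rhag, with a median of 1.31 over the list, below the 5.22 of Camp, the lowest among the 10 stage genes. The 8 monocyte and macrophage genes summed to 72.6 to 97.3 CPM in the controls and 211, 124, 224 and 63.6 CPM in scMC38 1 to 4, with a median factor of 0.955. Within that list Ly6c2, a marker of young monocytes, had a factor of 8.54, near that of the neutrophil genes. Mast cell and basophil genes summed to 6.62 to 15.5 CPM in the controls and 5.48 to 18.0 CPM in scMC38, carried by mast cell genes. The basophil protease genes of that list were highest in scMC38 3 and 1: Mcpt8 had 0 counts in all controls and 14, 0, 131 and 1 in scMC38 1 to 4, and Prss34 had 4 to 11 in the controls and 47, 2, 293 and 6. T cell genes (0.473 to 0.517 and 0.276 to 1.61 CPM) and epithelial genes (1.06 to 1.37 and 0.208 to 1.1 CPM) were low in all libraries.

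Further neutrophil genes outside the 36 were read from 6 lists of 52 genes, of which 31 were tested. Lrg1 and Csf2rb rose and 0 fell, beside the 0.737% and 0.468% of all tested genes, and 29 of the 31 had a log2 fold change above 0 (median 2.05, against a median of 0.00087 over all genes). Lcn2, the granule and acute phase protein lipocalin 2, stood at 0.437 to 1.64 CPM in the controls and 32.7, 1.72, 283 and 4.67 CPM in scMC38 1 to 4, with every tumour library above every control and a factor of 8.67 between scMC38 3 and 1. Lyz2, lysozyme, which macrophages share, had a factor of 1.87. Lrg1, a glycoprotein that endothelium and liver also make, stood at 14.1 to 18.2 CPM in the controls and 56.0, 41.2, 83.8 and 46.6 CPM in scMC38 1 to 4 (log2 fold change 1.76, adjusted p = 0.0167 by edgeR). Csf2rb, the shared beta chain of the GM-CSF, IL-3 and IL-5 receptors, stood at 1.66 to 3.51 CPM in the controls and 18.7, 15.6, 37.1 and 12.5 CPM in scMC38 1 to 4 (log2 fold change 3.11, adjusted p = 0.0201). In both genes every tumour library lay above every control. Both lost the edgeR call without control 1, 2 or 3 (adjusted p up to 0.0865) and kept it without scMC38 1 and 3 together (adjusted p = 0.0295 and 0.0359). Counts of Csf2rb may be shared with its close copy Csf2rb2.

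The oxidase that makes superoxide in the phagosome is shared by neutrophils and macrophages. Its 6 genes summed to 14.5 to 18.4 CPM in the controls and 61.5, 26.4, 268 and 16.8 CPM in scMC38 1 to 4, and 0 of 6 were called. Ncf1, a cytosolic subunit, was at 13.9, 3.8, 66.1 and 2.6 CPM in scMC38 1 to 4. The 5 adhesion genes summed to 7.70 to 11.3 CPM in the controls and 37.5, 17.0, 150 and 13.2 CPM in scMC38 1 to 4, with 0 of 5 called. Of 8 tested neutrophil receptors 1 was called, Csf2rb. Of 7 tested transcription factors 0 were called. The factor between scMC38 3 and 1 was 1.02 for Cebpa, 0.932 for Cebpb and 0.632 for Cebpd, which muscle without tumour also expressed. It was 1.49 for Irf8, 1.86 for Runx1, 3.49 for Spi1, 4.33 for Myb, and 9.17 for Lef1 on 7 counts in scMC38 1. Spi1 stood at 1.74 to 2.35 CPM in the controls and at 7.54 and 26.3 CPM in scMC38 1 and 3. Myb, which was not tested, stood at no more than 0.0837 CPM in a control and at 2.13 and 9.2 CPM in scMC38 1 and 3. Of the chemoattractant and growth factor genes Cxcl12, the marrow retention signal, was tested and not called (86.0 CPM in scMC38 4 and 66.7 to 130 CPM in the others, 77.2 to 143 CPM in controls, log2 fold change -0.16). Cxcl1, a ligand of Cxcr2, did not exceed 0.295 CPM in any library.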

How the data were processed

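Bulk mRNA sequencing of quadriceps was deposited as 1 table of estimated counts for genes, with no scaling by the authors. Salmon 1.10.3 and the build GRCm39 appear in the submitters' processing notes, as does fastp 1.0.1. The annotation release was not given in the sources used here, nor was the strand setting. Estimated counts of near-identical genes are uncertain.

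Rows with no symbol (144 of 35667, at most 0.00403% of a library's counts) were left out, repeated symbols were summed and values rounded. edgeR 4.0.16 in R 4.3.3 (filterByExpr, minimum count 10, TMM, robust quasi-likelihood F test, Benjamini-Hochberg adjustment over 14112 genes, threshold 0.05) compared scMC38 with control. Standard errors were derived from the fold change and its F value. The test was checked on simulated data. Intervals came from scipy 1.17.1.

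The members, gene lists and stage groups were chosen with earlier results of these data known. Every member is reported, while some genes of the other lists are not reported here. Of each other list, genes to be named were the up to 4 with the highest mean CPM. Ahsp, Klf1, Rhag, Slc4a1, Ly6c2, Mcpt8 and Prss34 fall outside that rule and were chosen after their values were seen. Phex, Kit, Flt3, Spi1, Runx1, Myb and Lef1 also fall outside that rule. DESeq2 1.42.0, other scalings and filters, and fits leaving out libraries were alternatives. Nothing in the labels pairs the replicate numbers across groups.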

Additional observations from a re-analysis of the deposited data

Results flagged for a closer look

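Within each group of 4 libraries, the gap from the farthest library to its nearest neighbour was divided by the group's range, and ratios over Dixon's 95% critical value for 4 samples were picked out. For normally distributed values chance alone does this in about 1 group in 20, and the share over all genes was not computed. The members were chosen with high neutrophil transcripts in some tumour libraries known, so nothing is read from the number of flags. In scMC38 30 of 36 genes passed, in each case because scMC38 3 was highest. The values were 0.896 for Mpo, 0.882 for Elane, 0.863 for Prtn3 and 0.906 for Ctsg among primary granule genes. They were 0.890 for Ms4a3, 0.861 for Gfi1 and 0.924 for Fcnb among promyelocyte genes, and 0.881 for Ltf, 0.894 for Ngp, 0.888 for Chil3 and 0.855 for Pglyrp1 among secondary granule genes. Among later genes they were 0.888 for Ly6g, 0.893 for Cd177, 0.919 for Itgb2l, 0.905 for Mmp8, 0.933 for Mmp9, 0.903 for Retnlg, 0.871 for Trem3, 0.832 for Wfdc21, 0.884 for Padi4 and 0.888 for Hdc. Among mature genes they were 0.895 for Csf3r, 0.95 for Cxcr2, 0.919 for S100a8, 0.895 for S100a9, 0.962 for Fpr1, 0.868 for Fpr2, 0.858 for Mxd1, 0.912 for Trem1 and 1.000 for Stfa2. The genes share the library, so these are not separate events.

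In the controls 6 of 34 genes passed. Control 3 was highest for Ly6g, Itgb2l and Trem3 (1.000 each, on 2, 1 and 1 counts), and control 4 for Mmp9 (0.916), Padi4 (0.882) and Stfa3 (1.000, on 6 counts).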

How the results depend on the processing

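The count of 0 members called higher by edgeR held under every alternative fit but DESeq2, which called 13 of 18, and the count of 0 called lower held under all. With 1 library left out, genes called over the whole table ran from 1 to 59 higher and from 1 to 52 lower. Total counts alone gave 216 higher, no filter gave 69 higher, and DESeq2 gave 829 higher and 597 lower. Without scMC38 1 and 3 there were 25 higher and 39 lower, and without control 1 and 2 there were 0 of either.

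The replicate block gave 0 higher and 1 lower, and 0 members. Same-numbered libraries correlated at -0.113, -0.281, -0.00583 and -0.245 in their deviations from the group means. These values gave no sign of a pairing but cannot exclude one, and the labels give none.

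The secondary granule median log2 fold change was 9.12 and 1.24 without scMC38 1 and 3, and the mature one 3.49 and 1.80. With all 12 mature genes in the sum, the log2 ratio of primary granule to mature genes was at most -7.46 in control 1. It was -5.48, -5.51 and -5.41 in controls 2 to 4. With mean log2 CPM it was -3.45 in control 1. In scMC38 1 and 3 these settings gave -2.40 and -2.56, and 0.03 and 0.17, the latter in the opposite order to -0.97 and -1.36. Signs turned for Anxa1 (-0.04 without scMC38 3, up to 1.33 with another library left out, and -0.71 without scMC38 1 and 3) and Camp (-0.01 without scMC38 1 and 3), which follows from the libraries left out. No primary granule median was fitted, because none of those genes passed the filter. Counts of 10 or fewer in scMC38 2, scMC38 4 and the controls limit what can be said of the early genes there.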
